A study of Mus musculus with 36 samples.

Results

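The population described here is the microglia sorted as CD11c-positive from the hippocampus of APP mice, transgenic animals that deposit amyloid in the brain. Its members were taken from the labels and not from measured values: all cell barcodes of the libraries titled as CD11c-positive APP hippocampus that had at least 200 detected genes, which kept 362 of 362 barcodes, out of 2657 such cells in the series. The cells came from male mice aged 6 months and were sorted as live CD11b-high, CD45-intermediate and CD11c-positive, so the gate uses the protein that Itgax encodes. The 362 cells lay in 5 libraries that form 3 replicates by their titles, 1-2 (147 cells), 2-3 (145 cells) and 4 (70 cells). They are set beside 426 CD11c-negative cells of APP hippocampus (4 replicates) and 587 CD11c-positive cells of APP cortex (4 replicates), all from male APP mice of the same age. The labels name no agent given to these groups.

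Microglia are the resident macrophages of the brain. Around amyloid they are known to take up an activated, disease-associated state in which genes of lipid handling and lysosomal digestion, such as Apoe, Lpl and Cst7, are high, and genes of the surveying, homeostatic state, such as P2ry12, Tmem119 and Cx3cr1, are low. Surface CD11c is a commonly used handle for that activated state. The measurements below ask how uniform the sorted cells were: which genes led, in how many cells each was found, how far cells differed, and whether activation and homeostatic genes were counted in the same cells.

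Several facts of the libraries touch all results. The replicate totals were 4451474, 3207673 and 1423625 counts for replicates 1-2, 2-3 and 4, and a cell had a median of 20168.5 counts (590 to 111281) and 1250 detected genes (354 to 2683). Library totals lay between 956491 and 2292059 counts, and the shallowest library, of replicate 2-3, had a median of 11221.5 counts per cell. The names 1-2 and 2-3 read like pools, which may share an animal, so p-values measure the spread between these samples and not surely between animals. Replicates of different groups may also come from the same animals, while the fit treats all sums as independent. The genotype tag reads wild type in all 5 of these libraries while their titles name APP mice, and the titles were used. The 5 libraries shared 61 of 78 well barcodes, which are plate indices and do not mark the same cell. The CD11c-positive and CD11c-negative hippocampal libraries carry different first numbers in their titles, so whatever that number stands for cannot be told apart from the gate. The CD11c-positive hippocampal and cortical libraries share no first number either, so it cannot be told apart from the region.

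All 5 marker genes of the population were present in each replicate. Apoe, which encodes the main lipid carrier of the brain, had 4484, 4657 and 4352 CPM (the share of a replicate's counts, scaled alike in all) in CD11c-positive cells of replicates 1-2, 2-3 and 4, against 484, 284, 381 and 70.9 CPM in the 4 CD11c-negative replicates. The CD11c-positive replicates thus lay close together, and each stood above all CD11c-negative ones. Cst7, encoding the cysteine protease inhibitor cystatin F, had 1012, 941 and 930 CPM in CD11c-positive cells, against 0 to 5.62 CPM in CD11c-negative cells. Lpl, encoding lipoprotein lipase, had 848, 1041 and 634 CPM in CD11c-positive cells, against 0.887 to 15.9 CPM in CD11c-negative cells. Gas7, a gene of the actin cytoskeleton, had 379, 608 and 405 CPM in CD11c-positive cells, and 1.40 CPM in 1 CD11c-negative replicate and 0 in the other 3. In none of these 4 genes did the 2 groups overlap. Clec7a, encoding the pattern receptor Dectin-1, had 328, 319 and 273 CPM in CD11c-positive cells, against 0 to 34.3 CPM in CD11c-negative cells. Itgax itself was the least abundant, with 86.3, 74.8 and 66.7 CPM in CD11c-positive cells, against 0 to 36.4 CPM in CD11c-negative cells. The 5 markers were thus higher in CD11c-positive than in CD11c-negative replicates, and Itgax was lower in CPM than each of the 5 markers. The markers were chosen with earlier results of these data known, so this describes the population and does not test its label.

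The genes lie, in GRCm38, at chr7:19696109-19699188 on the minus strand (Apoe), chr2:150570415-150578944 on the plus strand (Cst7), chr8:68880491-68907448 on the plus strand (Lpl), chr11:67455437-67688990 on the plus strand (Gas7) and chr6:129461591-129472779 on the minus strand (Clec7a). The promoters of the markers that RefSeq's table holds are printed here because these genes are markers used to describe the population. Each runs from 250 bases before to 50 bases after the start of transcription, 5′ to 3′ on the gene's strand, in GRCm38.p6. The windows are chr7:19699139-19699438 (Apoe), chr2:150570165-150570464 (Cst7) and chr6:129472730-129473029 (Clec7a). Capitals mark GAGGAA, the core of sites bound by the macrophage factor PU.1, or its reverse complement TTCCTC. Lpl and Gas7 are named only.
Apoe: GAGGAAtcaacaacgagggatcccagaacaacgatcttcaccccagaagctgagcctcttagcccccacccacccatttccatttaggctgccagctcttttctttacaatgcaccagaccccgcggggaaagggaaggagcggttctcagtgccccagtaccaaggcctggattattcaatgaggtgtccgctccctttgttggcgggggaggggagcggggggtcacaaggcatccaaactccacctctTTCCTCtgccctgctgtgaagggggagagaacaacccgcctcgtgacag
Cst7: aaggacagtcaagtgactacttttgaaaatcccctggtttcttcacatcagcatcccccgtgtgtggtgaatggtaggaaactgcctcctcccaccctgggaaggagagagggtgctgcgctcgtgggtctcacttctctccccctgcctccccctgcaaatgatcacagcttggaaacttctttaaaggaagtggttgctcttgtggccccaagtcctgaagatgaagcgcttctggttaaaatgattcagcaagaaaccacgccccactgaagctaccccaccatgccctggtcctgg
Clec7a: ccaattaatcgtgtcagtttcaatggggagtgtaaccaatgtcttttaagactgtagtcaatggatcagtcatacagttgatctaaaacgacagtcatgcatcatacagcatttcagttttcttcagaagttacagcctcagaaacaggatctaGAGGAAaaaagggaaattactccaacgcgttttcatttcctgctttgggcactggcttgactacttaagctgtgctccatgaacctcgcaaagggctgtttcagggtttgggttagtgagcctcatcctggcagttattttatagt

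GAGGAA was found at 2 places in the Apoe window, 1 on each strand, at 1 place in the Clec7a window and at none in the Cst7 window. The same search found it in 28.3% of the 32851 windows of the whole table. CACGTG, the palindromic E-box bound by lysosomal regulators of the MiT/TFE family, was in none of the 3 windows and in 7.15% of all windows. A match is a description of letters, not a site of binding.

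**Figure D1:**
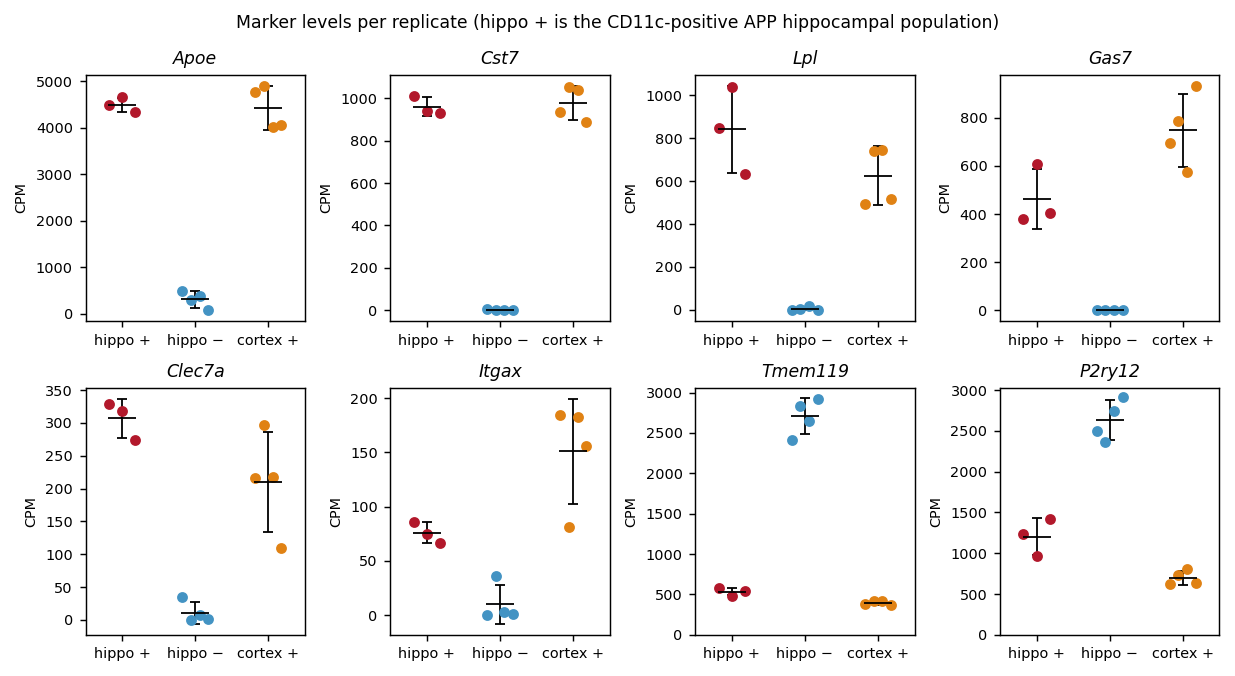
CPM of 8 genes (y axis, linear, 1 panel per gene) in each replicate sum, with the mean and SD as lines. CD11c-positive APP hippocampus (left) holds Apoe near 4498 CPM and Tmem119 near 533 CPM, against 305 CPM and 2705 CPM in CD11c-negative APP hippocampus (middle), and CD11c-positive APP cortex (right) lies near the population in Apoe and Cst7.

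Ordered by CPM per kilobase of exon, the 15 leading genes of the population included 3 cathepsins and the 3 chains of C1q. Cst3, encoding the secreted protease inhibitor cystatin C, was first with 6883, 7687 and 7623 CPM in replicates 1-2, 2-3 and 4, or 5843 ± 353 CPM per kb (SD, n = 3). Actb, the cytoskeletal actin, followed with 3625 ± 454 CPM per kb, and B2m, the light chain of MHC class I, with 3289 ± 321 CPM per kb. The lysosomal proteases among the first 15 were Ctss with 3158 ± 182, Ctsd with 2144 ± 269 and Ctsz with 1885 ± 81.0 CPM per kb. The chains of C1q, the recognition molecule of the classical complement pathway, were C1qb with 2506 ± 222, C1qc with 1840 ± 73.5 and C1qa with 1664 ± 291 CPM per kb. Tyrobp, the signalling adaptor of Trem2, had 2885 ± 462 CPM per kb, and Fcer1g, the adaptor of Fc receptors, 2198 ± 212 CPM per kb. Apoe was the 11th of the 15, with 2104 ± 71.4 CPM per kb, and the other 4 markers were not among them. Tmsb4x, which sequesters actin monomers, completes the list with 2165 ± 213 CPM per kb, apart from a pair of loci with uncertain counts. Adap2os (3165 ± 562 CPM per kb) is antisense to Adap2, and the sources used here do not state whether counting used strand, so reads of the 2 genes cannot be told apart. Mir703 (1791 ± 713 CPM per kb) spans 0.109 kb of exon, so a few reads give it a high value per length. Ordered by CPM alone, 7 of the 15 stayed and Malat1, Cd81, Dpysl2, Ctsb, Bhlhe41, Bmp2k, Dhrs3 and Gm2a came in. B2m, Tyrobp, C1qb, C1qa, Fcer1g, Tmsb4x, Ctsz and Mir703 dropped out. The order per kilobase assumes reads over whole transcripts, which was not tested here, and it ranks short genes higher.

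The profile was spread over many genes. The top 10 genes held 5.69% of the counts on average over the replicates, the top 100 held 24.0% and the top 1000 held 62.9%, of 16937 genes with any count in the population.

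In how many cells a gene was found depended on its level and on the depth of the cell, so shares are given both as deposited and after drawing 5000 counts from each cell, called equal depth here. Equal depth left 353 of 362 cells, with 6 cells of replicate 2-3 and 3 cells of replicate 4 too shallow. As deposited, 10 genes were counted in every one of the 362 cells: Cst3, Actb, Malat1, Ctss, C1qb, Cd81, Dpysl2, Bhlhe41, Bmp2k and Adap2os. Another 27 reached at least 95% of the cells of every replicate, among them Apoe, Ctsb, Ctsd, Ctsz, B2m, C1qc, Gm2a, the lipid exporter gene Abcg1 and the platelet-activating factor receptor gene Ptafr. A further 315 genes had their lowest replicate between 50% and 95% of cells, 2115 between 10% and 50%, and 14470 under 10%. At equal depth 3 genes, Actb, Cst3 and Malat1, were counted in all 353 cells, and 18 reached 95% of the cells of every replicate.

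The markers differed widely in the share of cells that held them. At equal depth Apoe was counted in 100%, 98.6% and 97.0% of cells of replicates 1-2, 2-3 and 4, against 18.3% ± 3.57 of CD11c-negative cells (SD, n = 4). Cst7 was counted in 59.2%, 52.5% and 59.7% of CD11c-positive cells, against 0.181% ± 0.362 of CD11c-negative cells, which was 1 cell of 409. Lpl was counted in 49.7%, 46.8% and 35.8% of CD11c-positive cells, against 1.11% ± 0.740 of CD11c-negative cells. Apoe was thus close to general in the population, while Cst7 and Lpl were counted in part of it. Gas7 was counted in 27.2%, 33.8% and 32.8% of CD11c-positive cells and in 0 of 409 CD11c-negative cells, which allows a share of cells with a count of up to 0.733%. Clec7a was counted in 21.1%, 15.8% and 31.3% of CD11c-positive cells, against 0.357% ± 0.413 of CD11c-negative cells. Itgax was counted in 10.2%, 3.60% and 7.46% of CD11c-positive cells, against 0.951% ± 0.749 of CD11c-negative cells, although every cell had passed a gate on its protein. As deposited the cells with a count were 361 for Apoe, 282 for Cst7, 222 for Lpl, 156 for Gas7, 114 for Clec7a and 47 for Itgax, of 362. A cell without a count is a cell in which the gene was not detectable at this depth.

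Homeostatic genes were counted in much of the population as well. P2ry12, encoding the purinergic receptor of microglial processes, was counted in 76.6% ± 9.84 of CD11c-positive cells and 89.5% ± 5.30 of CD11c-negative cells at equal depth. Tmem119, a membrane protein gene used as a microglial marker, was counted in 46.4% ± 9.68 of CD11c-positive cells and 86.9% ± 4.55 of CD11c-negative cells. Cx3cr1, the fractalkine receptor gene, was counted in 72.1%, 52.5% and 82.1% of CD11c-positive cells of replicates 1-2, 2-3 and 4 and 86.5% ± 4.53 of CD11c-negative cells. The gate therefore went with a much larger difference in share for Tmem119 than for P2ry12.

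**Figure D2:**
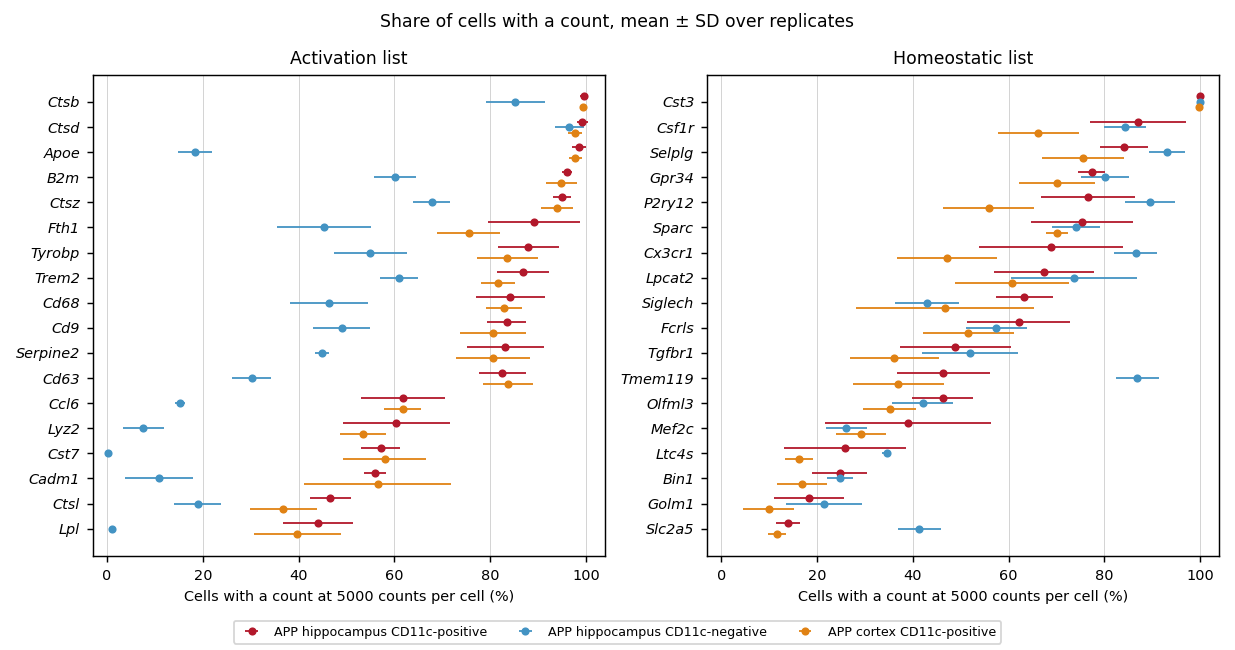
Percent of cells with a count at 5000 counts per cell (x axis) for 18 genes of high mean CPM from the activation list (left) and from the homeostatic list (right), as means with SD over replicates. CD11c-positive APP hippocampus is drawn above CD11c-negative APP hippocampus and CD11c-positive APP cortex in each row: Cst7 lies at 57.1% in the population and at 0.181% in CD11c-negative cells, while Cst3 lies at 100% in the population.

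Most cells carried several of the 5 markers. As deposited, 30 of the 362 cells had 1 of the 5 markers, 72 had 2, 120 had 3, 99 had 4 and 41 had all 5, and no cell lacked all of them. At least 3 markers were counted in 260 cells, 71.8% (exact binomial 95% interval 66.9% to 76.4%), or in 76.9%, 65.5% and 74.3% of the cells of replicates 1-2, 2-3 and 4. Of 426 CD11c-negative cells 0 had 3 or more and 264 had none. Of 587 CD11c-positive cortical cells 348 (59.3%) had 3 or more. At equal depth 182 of 353 cells (51.6%) had 3 or more. Intervals here and below treat pooled cells as independent draws. They cover counting error only and not the spread between replicates, and reads of amplified cDNA need not be independent molecules.

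In several pairs of the less common markers, the share of cells with 1 marker was higher among cells that held the other. At equal depth 110 cells held both Cst7 and Lpl, 90 Cst7 alone and 52 Lpl alone, so that Lpl was in more than 50% of cells with Cst7, against 34.0% of cells without it. Clec7a was counted in 24.0% of cells with Cst7 and 17.0% of cells without it, and Gas7 in 36.4% of cells with Lpl and 26.2% of cells without it. For Clec7a and Gas7 the direction depended on depth: at equal depth Clec7a was counted in 19.3% of cells with Gas7 and 21.7% of cells without it, and as deposited in 36.5% of cells with Gas7 and 27.7% of cells without it. These are shares of pooled cells and carry no test.

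Activation and homeostatic genes were counted in the same cells. At equal depth 259 of 353 cells held both Apoe and P2ry12, 90 held Apoe without P2ry12 and 4 held P2ry12 without Apoe. Cst7 and P2ry12 were both counted in 150 cells, and P2ry12 was as frequent in cells with Cst7 (75.0%) as in cells without it (73.9%). Cst7 and Tmem119 were both counted in 90 cells, and Tmem119 was counted in 45.0% of cells with Cst7 and 46.4% of cells without it. The presence of Cst7 thus went with little difference in the share of cells holding either homeostatic gene. Cx3cr1 was counted in 63.5% of cells with Cst7 and 69.9% of cells without it, and in 59.6% of cells with Gas7 and 69.3% without it. In replicate 4 Gas7 and Cx3cr1 ran the other way, with Cx3cr1 in 90.9% of cells with Gas7 and 77.8% without it. Cd63, the gene of a tetraspanin of late endosomes, had P2ry12 in 77.0% of cells with it and 63.6% of cells without it. Cells with more detected genes hold more of any pair, and that part was not tested.

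To place single cells, a score was taken per cell at equal depth as the mean of log2(count + 1) over a list of 36 activation genes and over a list of 30 homeostatic genes. The median activation score was 1.52 in CD11c-positive cells and 0.64 in CD11c-negative cells. The median homeostatic score was 1.16 in CD11c-positive cells and 1.599 in CD11c-negative cells. Both distributions overlapped. In activation, 204 of 353 CD11c-positive cells lay above the highest CD11c-negative cell (1.41), and 80 (22.7%) lay at or below the 95th percentile of CD11c-negative cells (1.08). In the homeostatic score, 32, 57 and 12 cells of replicates 1-2, 2-3 and 4 lay below the 5th percentile of CD11c-negative cells (0.99), 29 of 353 at or above their median, and 0 above their 95th percentile (2.09). The lowest homeostatic score was 0.23 in CD11c-positive cells and 0.60 in CD11c-negative cells, so the low end reached beyond that of the CD11c-negative cells.

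The 80 cells low in activation came from every replicate, 34 from replicate 1-2, 35 from replicate 2-3 and 11 from replicate 4, or 23.1%, 25.2% and 16.4% of their cells. Apoe was counted in 79 of the 80, Cst7 in 23, Lpl in 9 and Itgax in 0, against 270, 177, 153 and 25 of the 273 cells above that level, which the score itself partly sets. Their median homeostatic score was 1.16, against 1.17 in the 273 other cells. They had fewer detected genes at equal depth, a median of 647.5 against 872 in the other cells, and fewer deposited counts, a median of 16678 against 22398. The part of gene number in their low score was not tested.

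**Figure D3:**
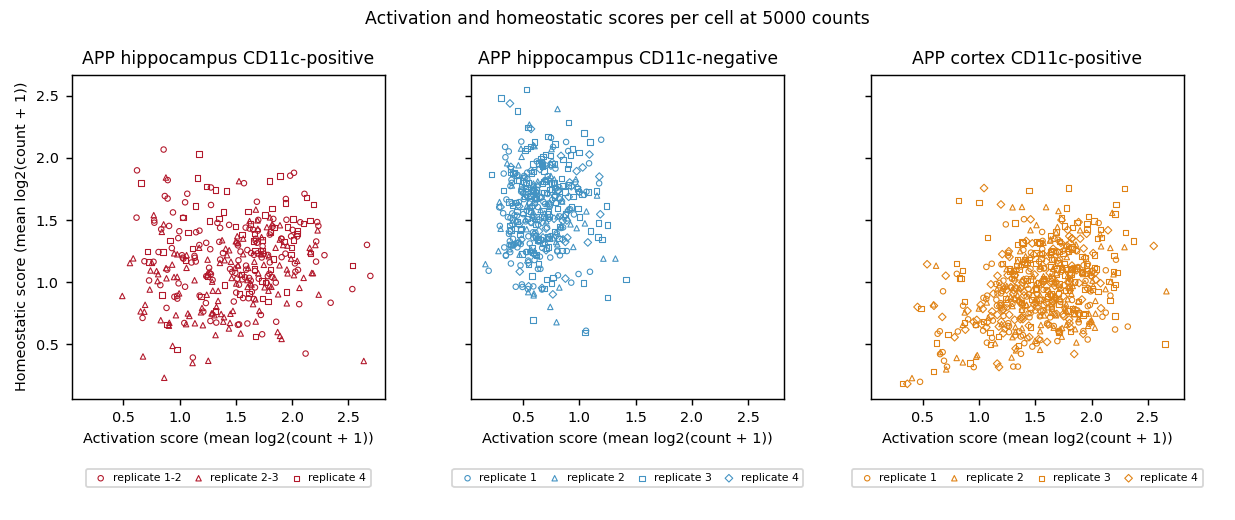
Activation score (x axis) against homeostatic score (y axis), both as mean log2(count + 1) at 5000 counts, 1 point per cell with replicates as symbols, for CD11c-positive APP hippocampus (left), CD11c-negative APP hippocampus (middle) and CD11c-positive APP cortex (right). The population spreads over activation scores of 0.49 to 2.69, while CD11c-negative cells stay at or below 1.41.

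The 2 scores were nearly unrelated within the population. Over cells, Spearman's rho between them was -0.01, 0.22 and 0.11 in replicates 1-2, 2-3 and 4, a mean of 0.11 ± 0.12 (SD, n = 3). The same rho averaged 0.03 in CD11c-negative hippocampal cells and 0.28 in CD11c-positive cortical cells (0.22 to 0.40 over the 4 replicates). The activation score went with the number of detected genes, at rho 0.54, 0.53 and 0.41, and with that number held fixed the partial rho between the scores was -0.12, 0.09 and 0.04. Cells of a replicate share library and depth, so these values carry no p. The number of detected genes at equal depth was itself higher than in CD11c-negative cells: the replicate medians were 866, 701 and 1008 genes in CD11c-positive cells, against 551 to 631 in CD11c-negative cells. The groups did not overlap, and an exact two-sided permutation test of 3 against 4 replicates gave p = 0.0571, the smallest it can give (0.114 adjusted over 2 comparisons). CD11c-positive cortical cells had 663 to 933 genes, which overlapped the population (exact permutation p = 0.514).

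Gene by gene, pairs within the activation list had a higher median rho than all pairs did. Among 450 genes counted in at least 30% of the cells of every replicate at equal depth, the median rho over all 101025 pairs was 0.01 (5th to 95th percentile -0.11 to 0.14). The 171 pairs within the activation list had a median of 0.15, and 98.2% were above 0. The 91 pairs within the homeostatic list had a median of 0.06, with 79.1% above 0, and the 266 pairs across the lists had a median of 0.02, with 57.5% above 0, against 57.8% of all pairs. Homeostatic pairs thus lay nearer to all pairs than activation pairs did, and pairs across the lists were centred where all pairs were. Pairs were not matched for level or for the number of detected genes per cell, and the part of either was not tested.

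The strongest activation pairs were lysosomal. Ctsd and Ctsb, encoding cathepsins D and B, had rho 0.59, 0.44 and 0.58 in replicates 1-2, 2-3 and 4. Ctsd and Ctsz had a mean of 0.39, Ctsb and Cd68, the gene of a lysosomal membrane glycoprotein, a mean of 0.36, and Cst7 and Serpine2, a secreted protease inhibitor gene, a mean of 0.35. Across the lists the highest pair was Ctsd with Cst3, at 0.38, 0.30 and 0.65. Fcrls, counted as homeostatic, went with Serpine2 (mean 0.27) and with Cst7 (mean 0.23). The lowest pairs across the lists were Fth1, encoding ferritin heavy chain, with Gpr34 (mean -0.19), Apoe with P2ry12 (-0.16, -0.12 and -0.16) and Lpl with P2ry12 (-0.16, -0.09 and -0.18). Inverse relations were therefore weak, though below 0 in each of the 3 replicates for these pairs.

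The genes most like the markers over cells were named by rank. Apoe went highest with the mitochondrial rRNA gene mt-Rnr2 (mean rho 0.36), Ctsb (0.33) and mt-Cytb (0.30), and lowest with Rbm26 (-0.25), Rbm25 (-0.22) and Adap2 (-0.22). Cst7 went highest with Syngr1 (0.39), Serpine2 (0.35) and the pseudogene Rpl5-ps2 (0.26), and lowest with Adap2os (-0.34), Malat1 (-0.28) and Adap2 (-0.26). Lpl went highest with the chemokine gene Ccl6 (0.28), Cst7 (0.26) and Cd68 (0.23), and lowest with Adap2os (-0.28), Bmp2k (-0.21) and Malat1 (-0.20). Cst7 and Lpl thus shared Adap2os and Malat1 at the low end. Tmem119 went highest with Calm2 (0.18), Selplg (0.18) and Ccdc85c (0.17), and P2ry12 with Lgmn (0.18), Lpcat2 (0.16) and Ly6e (0.14). At their low ends stood Gm28661 (-0.19), Gm13341 (-0.18) and Zc3hav1 (-0.17) for Tmem119, and Paip1 (-0.17), Ptges3 (-0.15) and Cd83 (-0.15) for P2ry12.

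**Figure D4:**
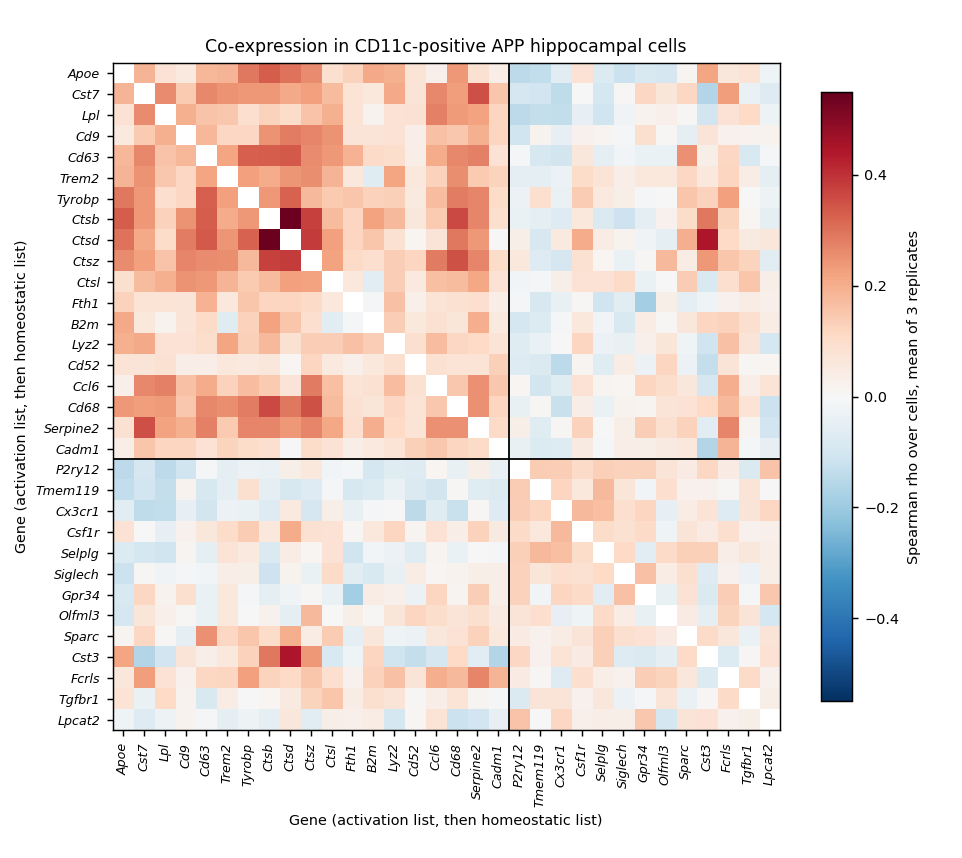
Spearman's rho over cells, mean of the 3 replicates (colour), between activation genes and homeostatic genes of CD11c-positive APP hippocampus, with lines between the lists. The activation block has a median of 0.15 with Ctsd and Ctsb highest at 0.54, and across the lists Ctsd with Cst3 stands highest at 0.45.

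Cell-to-cell spread followed the level of a gene. The coefficient of variation (CV, SD over mean of the equal-depth counts) was 0.49 ± 0.02 for Cst3, 0.52 ± 0.03 for Ctss and 0.56 ± 0.06 for Ctsd (SD over 3 replicates). It was 0.80 ± 0.02 for Apoe, 1.40 ± 0.17 for Cst7, 1.67 ± 0.18 for Lpl, 2.19 ± 0.21 for Gas7 and 2.68 ± 0.56 for Clec7a. P2ry12 had 1.12 ± 0.17 and Tmem119 1.64 ± 0.29. The markers thus spanned a wide range of CV, in the order of their mean counts. Against genes of like level, of 1367 genes with a mean of at least 0.5 counts in every replicate, 1 gene exceeded the running median by more than 0.5 on the log2 scale in all 3 replicates: Dguok, a mitochondrial deoxyguanosine kinase gene, by 0.61, 0.55 and 0.64. Mcmbp, Arap3, Cdk6, Hp1bp3, Atf7ip and Glg1 were among those next in order, with lowest excesses of 0.45 to 0.36. None of these genes is on the activation list. No gene passed when 2000 or 10000 counts were drawn per cell or without the shallowest library. Without 1 replicate 3 or 4 passed, but there the rule had to hold only in the replicates left. Among the markers, the excess of Apoe lay between -0.09 and 0.03. In the other direction 58 genes lay more than 0.5 below in all 3 replicates, 46 of them among the 127 predicted genes and pseudogenes tested, led by Gm10837, Gm13456 and Gm4963. Among annotated genes the evenest were Jund (-0.68, -0.96 and -0.86), Cst3, Fam221b, Hmgb1, Ppia, Ddx23, Mir703 and Ctss. Genes that share reads with near-identical copies are uncertain here.

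The concentration of counts in few cells gave the markers the same order. The richest 10% of cells held 20.2% of the counts of Cst3, 27.3% of Apoe, 42.9% of Cst7, 50.7% of Lpl, 67.2% of Gas7, 80.2% of Clec7a and 83.8% of Igf1, the insulin-like growth factor gene (means over replicates). As summed lists, activation genes were even over cells, with 18.4% in the richest 10% of cells, close to the homeostatic list with 17.9%. These 2 lists summed to 41444.5 and 23351 CPM on average. Several lists of lower level were more concentrated. The richest 10% of cells held 65.4% of interferon-response counts, 65.2% of MHC class II counts and 88.3% of cell-cycle counts. Those lists summed to 880, 1532 and 458 CPM. For inflammatory, immediate-early and cholesterol-synthesis genes the share was 52.6%, 50.1% and 39.8%, at 1174, 704 and 1171 CPM. The part of level in these shares was not tested.

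**Figure D5:**
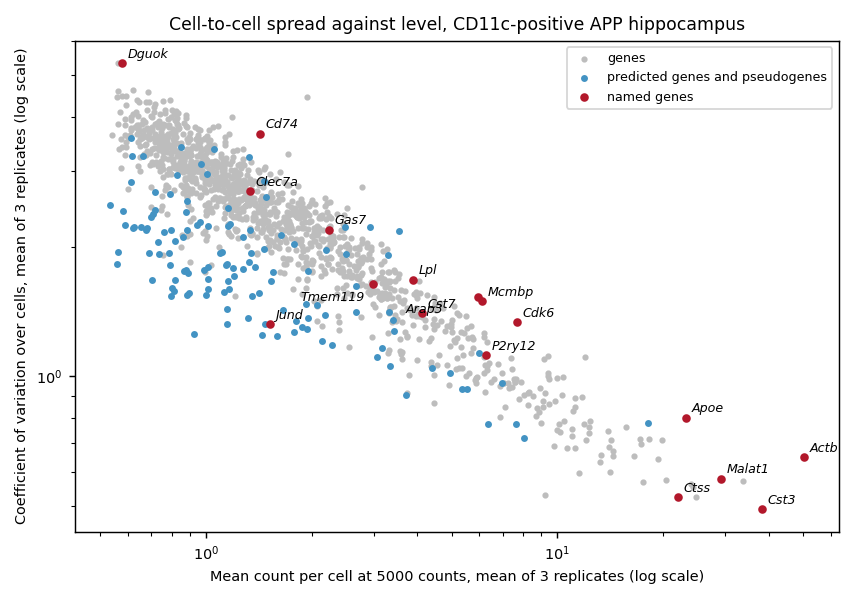
Coefficient of variation over cells (y axis, log scale) against mean count per cell at 5000 counts (x axis, log scale), both means over the 3 replicates of CD11c-positive APP hippocampus, 1 point per gene. Cst3 (0.49) and Ctss (0.52) are the evenest named genes, Dguok (5.32) lies at the upper edge, and predicted genes and pseudogenes (blue) lie mostly in the lower part of the cloud at low levels.

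MHC class II genes, which present antigen to CD4 T cells, marked a small share of the population. At least 3 of 8 such genes were counted in 35 of 353 cells at equal depth (9.92%, exact 95% interval 7.00% to 13.5%), against 2 of 409 CD11c-negative cells and 21 of 571 CD11c-positive cortical cells. As deposited the counts were 91 of 362, 6 of 426 and 38 of 587 cells. By replicate they were 12, 8 and 15 cells of replicates 1-2, 2-3 and 4, or 8.16%, 5.76% and 22.4%. Replicate 4, which is 1 library, stood above the other replicates. The shares of replicates 2-3 and 4 lay outside the interval of the pooled cells. The invariant chain gene Cd74 had 172, 122 and 480 CPM in those replicates, and H2-Ab1, an MHC class II chain gene, 209, 168 and 682 CPM, against 0 to 68.8 CPM in CD11c-negative cells. Neither was past the threshold in edgeR's test between the gates (adjusted p = 0.326 for Cd74 and 0.435 for H2-Ab1), and 0 of 7 tested members of the list were. Markers of other cells moved with replicate 4: the 7 dendritic-cell markers summed to 29.9, 17.5 and 142 CPM in replicates 1-2, 2-3 and 4, with Cd209a at 136 CPM in replicate 4 and 0 in the other 2, and at least 4 of the 7 at 0 in each replicate. The 6 monocyte markers, 4 of them in the files, summed to 47.4, 29.0 and 112 CPM, with Ccr2 at 30.1, 29.0 and 100.4 CPM. The 8 border-macrophage markers, 6 of them in the files, summed to 54.4, 65.5 and 96.9 CPM in replicates 1-2, 2-3 and 4, against 0 to 12.1 CPM in CD11c-negative hippocampus and 0 to 28.2 CPM in CD11c-positive cortex, so the population lay above both groups without overlap. In the 35 cells, Cd209a was counted in 3, Ccr2 in 4, Mrc1 in 5, Ms4a7 in 4 and Pf4 in 0, against 1, 7, 1, 4 and 5 of the 318 other cells, and the dendritic markers Flt3 and Zbtb46 in 0 against 1 and 4. The same 35 cells held Apoe in 34, Cst7 in 22, P2ry12 in 28 and Tmem119 in 18. Their median activation score was 1.57 and their homeostatic score 1.14, against 1.52 and 1.16 in the other cells. They had a median of 1023 genes at equal depth, against 792 in the other cells, at 17365 deposited counts, against 21038.5 in the other cells. The part of gene number and of other cell types in the MHC class II level of replicate 4 was not tested.

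Interferon-response and cell-cycle genes marked still fewer cells. At least 3 of 23 interferon-response genes were counted in 16 of 353 cells (4.53%, exact 95% interval 2.61% to 7.26%), 6, 6 and 4 in replicates 1-2, 2-3 and 4, against 4 of 409 CD11c-negative and 20 of 571 CD11c-positive cortical cells. At least 3 of 18 cell-cycle genes were counted in 11 cells (3.12%, 1.57% to 5.51%), 4, 2 and 5 by replicate, against 1 of 409 CD11c-negative and 15 of 571 CD11c-positive cortical cells. The cell-cycle cells were detected at a median of 29834 deposited counts, against 20464 in the other cells of the population. Top2a, a topoisomerase of dividing cells, had 77.7, 34.6 and 138 CPM in the replicates.

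Cells with several markers of another cell type were few in the population. At equal depth 8 of 353 cells (2.27%) had at least 2 markers of 1 other cell type, against 4 of 409 CD11c-negative cells (0.978%) and 132 of 571 CD11c-positive cortical cells (23.1%). The 12 neuronal markers summed to 45.2 to 185 CPM in the population, against 1.77 to 108 CPM in CD11c-negative hippocampus and 1060 to 2099 CPM in CD11c-positive cortex. The 8 astrocyte markers summed to 134 to 146 CPM in the population, against 175 to 384 CPM in CD11c-negative hippocampus and 845 to 2097 CPM in CD11c-positive cortex. Oligodendrocyte markers summed to 48.6 to 94.1 CPM and endothelial markers to 5.39 to 33.0 CPM in the population. Red-cell markers were at 0, and neutrophil and lymphocyte markers at or below 0.702 CPM, in its 3 replicates.

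The comparison between the gates asked which genes, over all genes and replicate sums, differed between CD11c-positive and CD11c-negative cells of the same APP hippocampus. Of the genes tested, 14 of 35 activation genes were higher and 6 of 30 homeostatic genes lower in CD11c-positive cells. Counts were summed over the cells of a replicate and tested with edgeR's quasi-likelihood test over all 6 groups of the series, with Benjamini-Hochberg adjustment over 14892 genes. Of these genes 66 (0.443%) were higher and 16 (0.107%) lower in CD11c-positive cells at an adjusted p under 0.05, and 1626 had an unadjusted p under 0.05. With edgeR's RLE factors the split was 41 higher and 37 lower, and with no scaling factors 45 higher and 32 lower. Leaving out a replicate moved the total of 82 by over 1.5 times in 5 cases, to 35, 30 and 50 without CD11c-positive replicates 1-2, 2-3 and 4, and to 33 and 38 without CD11c-negative replicates 1 and 2.

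Of 35 tested members of the activation list, 14 were higher and 0 lower in CD11c-positive cells, beside 0.443% and 0.107% of all genes. All 35 had a log2 fold change above 0, and their median log2 fold change was 2.92, beside 0 over all genes. This list and the homeostatic list were chosen with earlier results of these data known, so their counts are a description. Apoe was higher by 4.04 ± 0.56 on the log2 scale (adjusted p = 0.000369), Cst7 by 8.89 ± 1.75 (0.0127), Lpl by 7.33 ± 1.39 (0.0116) and Gas7 by 9.93 ± 1.34 (0.00025). Here and below, ± beside a log2 fold change is an approximate SE, its size divided by the square root of edgeR's F statistic. It was not fitted directly and is rough where a group is near 0 counts, as for Cst7 and Gas7. Clec7a (4.97 ± 1.69, adjusted p = 0.256) and Itgax (3.13 ± 1.61, adjusted p = 0.493) did not pass, although their replicates did not overlap. Cst7 missed the threshold without CD11c-negative replicate 2, 3 or 4 (edgeR adjusted p = 0.0700, 0.0555 and 0.0513) and Lpl without CD11c-negative replicate 1 or 2 (0.0608 and 0.0632). The other members that rose were Cd63 (1.86 ± 0.21), Igf1, Ch25h, an oxysterol enzyme gene, the iron-storage gene Fth1 (1.20 ± 0.20), Tyrobp (1.02 ± 0.17), B2m (1.09 ± 0.16), Ctsz, Cd9, Cd68 and the adhesion gene Cadm1. The calls of Ch25h, Cd68, Cadm1, Ctsz and Cd9 were lost in 4 or more of the 15 alternative settings, with highest adjusted p of 0.142, 0.190, 0.150, 0.0922 and 0.104. Trem2, the lipid-sensing receptor of microglia, had 1897, 1932 and 1783 CPM in CD11c-positive cells and 1178 to 1646 CPM in CD11c-negative cells, with no overlap and an adjusted p of 0.281. Axl, a receptor for dying cells, had 226, 268 and 252 CPM in CD11c-positive cells and 0 to 45.6 CPM in CD11c-negative cells, with an adjusted p of 0.288.

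Of 30 tested members of the homeostatic list, 6 were lower and 0 higher, beside 0.107% of all genes called lower. The median log2 fold change was -0.75, beside 0 over all genes. The lower members were 10 with RLE factors and 8 without scaling factors, beside 37 and 32 of all genes. Without cells that held 2 markers of another cell type they were 8, beside 18 of all genes. Tmem119 had 574, 483 and 542 CPM in CD11c-positive cells, against 2417, 2835, 2646 and 2924 CPM in CD11c-negative cells, and fell by 2.20 ± 0.17 on the log2 scale (adjusted p = 2.59e-08). Selplg, encoding the P-selectin ligand, averaged 1490 ± 110 CPM in CD11c-positive cells and 3074 ± 103 CPM in CD11c-negative cells (log2 fold change -0.90 ± 0.12, adjusted p = 0.000196). P2ry12 averaged 1204 ± 227 CPM in CD11c-positive cells and 2632 ± 246 CPM in CD11c-negative cells (-0.99 ± 0.17, adjusted p = 0.00392). Cx3cr1 averaged 939 ± 170 CPM in CD11c-positive cells and 2377 ± 153 CPM in CD11c-negative cells (-1.20 ± 0.19, adjusted p = 0.00167). The fructose transporter gene Slc2a5 (-1.83 ± 0.32) and the adhesion receptor gene Adgrg1 (-2.57 ± 0.45) also fell, with adjusted p = 0.00417 for each. Slc2a5 missed the threshold without CD11c-positive replicate 1-2 or 2-3 (edgeR adjusted p = 0.0524 and 0.0627), and Adgrg1 without replicate 2-3 (0.0571). Siglech, encoding a sialic-acid-binding receptor, did not pass the threshold and averaged 884 ± 53.3 CPM in CD11c-positive cells and 832 ± 222 CPM in CD11c-negative cells. Tmem119, Selplg, P2ry12 and Cx3cr1 stayed past the threshold in 15 of 15 alternative settings.

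Over all genes, the called changes of largest fold without overlap included members of both lists. Igf1 had 325, 269 and 238 CPM in CD11c-positive cells, against 1 count in all CD11c-negative cells (log2 fold change 10.79 ± 1.87, adjusted p = 0.00392). Ifi27l2a, an interferon-responsive gene, had 160, 96.6 and 124 CPM in CD11c-positive cells and 0 counts in CD11c-negative cells, at least 413-fold higher against a floor of 3 counts over the group. For Rab7b, a GTPase gene of late endosomes, the bound was at least 294-fold higher. It was 325-fold for Gm1673 and 195-fold for Etl4. Ifi27l2a and Rab7b lost their call without any 1 of the 7 replicates (adjusted p of 0.0618 to 0.126), and Etl4 without any but CD11c-positive replicate 4 (up to 0.123). Etl4 kept its call in 7 of 15 alternative settings. Gm1673 and Igf1 kept theirs in 15 of 15 settings. The lower genes were Camk2n1, an inhibitor gene of CaM kinase II (-3.31 ± 0.66), Adgrg1, the semaphorin gene Sema4b (-2.43 ± 0.21), Tmem119, Tmem173 (-2.19 ± 0.50) and Susd3 (-2.14 ± 0.34). Sema4b had 114, 159 and 126 CPM in CD11c-positive cells and 762 to 876 CPM in CD11c-negative cells, and it and Susd3 kept their call in 15 of 15 settings. Tmem173 kept its call in 5 of 15 settings. Its losses included those without each of the 3 CD11c-positive replicates and without CD11c-negative replicates 1, 2 and 3 (up to 0.251). Camk2n1 kept its call in 11 of 15 settings, with a highest adjusted p of 0.0967. Its losses included those without CD11c-positive replicate 1-2 or 2-3 (0.0953 and 0.0571).

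Other lists moved in a few members each, beside 0.443% of all genes called higher. Of lipid-handling genes 5 of 21 were higher: Apoe, Lpl, Ch25h, the cholesterol acyltransferase gene Soat1 (1.70 ± 0.28) and the lysosomal cholesterol carrier gene Npc2 (1.87 ± 0.37). Npc2 lost its call without CD11c-negative replicate 1 or 2 (adjusted p = 0.0746 and 0.0801) and without CD11c-positive replicate 1-2 or 2-3 (0.0575 and 0.0851), and without cells that held 2 markers of another cell type (0.0714). Of lysosomal genes 4 of 33 were higher, Gm2a (1.37 ± 0.18), Ctsz, Npc2 and Cd68. Of cholesterol-synthesis genes 1 of 18 was higher, Insig1, which restrains that pathway, with 720, 797 and 643 CPM in CD11c-positive cells and 122 ± 34.9 CPM in CD11c-negative cells (2.72 ± 0.31, adjusted p = 2.51e-05). Of 21 phagocytic receptors and their adaptors 1, Tyrobp, was higher, of 11 MHC class I genes 1, B2m, and of 20 interferon-response genes 1, Ifi27l2a. Tyrobp and B2m lost their call in the fit of the 2 groups alone (adjusted p = 0.0726 and 0.0564). None of the tested genes of glycolysis (16), complement (7), inflammation (13), immediate-early response (13), cell cycle (16) or the transcription factors (17) was called in either direction. With 0.443% of all genes called higher and 0.107% lower, 0 calls in lists this small do not show that they stayed level. Their median log2 fold changes were 4.09 for inflammation, 1.39 for cell cycle and 1.03 for glycolysis. They were 0.11 for the transcription factors, -0.03 for complement and -0.18 for immediate-early genes, beside 0 over all genes. C1qa, C1qb and C1qc had log2 fold changes of -0.30, -0.07 and -0.03, with adjusted p of 0.888, 1 and 1, although they were among the leading genes of the population. The chemokine gene Ccl3 (5.69 ± 1.38, adjusted p = 0.0591) and Ctsb (0.74 ± 0.18, adjusted p = 0.0591) stood just outside the threshold.

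The comparison with CD11c-positive cells of APP cortex asked whether the same gate gave the same profile in the other region. No gene was called higher in hippocampal cells (0% of 14892) and 33 were called lower (0.222%), while 1675 had an unadjusted p under 0.05 in either direction. DESeq2 called 34 higher and 590 lower, and edgeR on these 2 groups alone 28 higher and 424 lower. The median log2 fold change over all genes was -0.15, and values here are read against it. The 33 genes include the neuronal marker Syt1 and the astrocyte marker Sox9 of the marker lists. Golga7b was at 0 counts in hippocampal cells and at 144, 176, 219 and 404 CPM in cortical cells, at least 712-fold lower. The astrocytic factor gene Sox9 was at least 573-fold lower, the growth factor gene Ptn at least 501-fold, Arhgap44 at least 383-fold, Sox11 at least 383-fold the axonal scaffold gene Ank3 at least 364-fold and Syt1, of synaptic vesicles, at least 352-fold. Cells with 2 or more markers of another type, which use Sox9 and Syt1 among others, made up 23.1% of the cortical and 2.27% of the hippocampal cells at equal depth. In the deposited counts such cells were 186 of 587 cortical and 15 of 362 hippocampal cells. Without these, as judged in the deposited counts, 0 genes were called (529 with an unadjusted p under 0.05). The count was 8, 7 and 11 without hippocampal replicates 1-2, 2-3 and 4, and 21 and 20 without cortical replicates 3 and 4.

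Between hippocampal and cortical CD11c-positive cells, none of the 35 tested activation genes was called, beside 0% of all genes called higher and 0.222% lower. At those shares, 0 calls in a list of 35 or 30 genes say little about the list. Apoe averaged 4498 ± 153 CPM in hippocampal and 4436 ± 471 CPM in cortical cells, and Cst7 961 ± 44.5 CPM in hippocampal and 979 ± 80.8 CPM in cortical cells. Lpl averaged 841 ± 204 CPM in hippocampal and 626 ± 138 CPM in cortical cells, and Gas7 464 ± 125 CPM in hippocampal and 748 ± 151 CPM in cortical cells. Clec7a averaged 307 ± 29.5 CPM in hippocampal and 210 ± 76.7 CPM in cortical cells, and Itgax 75.9 ± 9.81 CPM in hippocampal and 151 ± 48.2 CPM in cortical cells. All 6 had an adjusted p of 1 with approximate standard errors, derived from edgeR's F, of 0.52 to 1.58 on the log2 scale. These are a rough measure of the precision these replicates give. The activation list had a median log2 fold change close to 0, with 17 of 35 genes above 0 and 0 called. Without scaling factors 24 of 35 were above 0, and without cells that held 2 or more markers of another type 6 of 35 were, with a median of -0.31, beside 0.05 over all genes. At equal depth Gas7 was counted in 27.2% to 33.8% of hippocampal and 35.3% to 48.9% of cortical cells, and Itgax in 3.60% to 10.2% of hippocampal and 12.3% to 17.3% of cortical cells, without overlap between replicates. Homeostatic genes lay mostly above 0: 28 of 30 had a log2 fold change above 0, with a median of 0.58, beside 6458 of all 14892 genes above 0, and 0 of the 30 were called. Cx3cr1 averaged 939 ± 170 CPM in hippocampal and 502 ± 94.1 CPM in cortical cells (0.82 ± 0.18, adjusted p = 0.0553), and P2ry12 1204 ± 227 CPM in hippocampal and 700 ± 86.7 CPM in cortical cells (0.70 ± 0.17, adjusted p = 0.0785). Neither passed the threshold, though Cx3cr1 did in 6 and P2ry12 in 3 of 15 alternative settings. Of the 30 genes, 1 was called higher with RLE factors and 2 without scaling factors, beside 1 and 3 of all 14892 genes under the same settings. Without cells that held 2 or more markers of another type, 23 of the 30 were above 0 and the median was 0.32.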

How the data were processed

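Single microglia were sorted into 384-well plates and sequenced by a protocol derived from Smart-seq2, per the labels' protocols. The files hold, as deposited, unnormalised whole-number counts for each gene in each cell, which the authors made with UMI-tools 0.5.3, HISAT2 2.1.0 and featureCounts 1.6.0 on GRCm38, per the submitters' processing notes. Whether reads with 1 molecular identifier were merged is not recorded there: 29.9% of the non-zero entries are 20 or more, so a count may be a read and counting intervals may be too narrow. Groups come from sample titles. The genotype tag disagrees with the title in libraries of all 6 groups.

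Cells with at least 200 detected genes were kept, no doublet caller was run, and counts were summed per replicate. edgeR 4.0.16 (limma 3.58.1, R 4.3.3) fitted 23 sums of 6 groups by quasi-likelihood after TMM scaling and filterByExpr, with 17 residual degrees of freedom, a common biological coefficient of variation of 1.37 and Benjamini-Hochberg adjustment over 14892 of 26348 genes. Every adjusted p is edgeR's unless DESeq2 (1.42.0) is named. The approximate SE of a log2 fold change is its size divided by the square root of edgeR's F statistic. CPM were taken from the replicate sums without scaling factors. Per-cell values used 5000 counts drawn per cell (seed 20260) in Python 3.11.15 with numpy 2.4.6, scipy 1.17.1 and pandas 2.3.3. Spread was set against a running median of CV over genes of like mean. Correlations over cells are means of Spearman's coefficient within replicates. Scripts were tested on simulated data.

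Members and lists were chosen with earlier results of these data known, and lists carry no test. Named genes were the 5 markers and Itgax, 15 leading genes per kb, up to 4 members per list by CPM, 8 genes at each end of excess spread, 3 partners at each end of that correlation, and up to 6 genes each way per comparison with the largest called fold, at least 50 CPM and no overlap. Called list members outside that rule and single genes beside a list count were named after their values were seen. Some items are not reported here.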

Additional observations from a re-analysis of the deposited data

Results flagged for a closer look

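Of 51 sets of values examined, 4 held a sample far from the others of its group, and all 4 lay in CD11c-negative APP hippocampus. The rule compares the gap to the next value with the range, and chance gives about 5% for values of ordinary spread. It always flags a set in which all values but 1 are 0, as for Gas7, Ch25h and Igf1, so the 4 cannot be set against that share. Itgax had 36.4 CPM in replicate 2, against 0 to 2.52 CPM in the other 3 replicates. Gas7 had 1.40 CPM in replicate 3 and 0 in the others. Ch25h and Igf1 each had 0.887 CPM in replicate 4, a single count, and 0 in the others.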

How the results depend on the processing

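The count of 82 genes between the gates became 504 with DESeq2 and 30 to 59 when 1 replicate was left out. The activation members higher were then 7 to 13, and the homeostatic members lower 4 to 7, with 10 under RLE factors and 17 with DESeq2. The count of 33 genes between regions became 78 without a filter on low counts, 624 with DESeq2, 452 in a fit of the 2 groups, 7 to 30 without 1 replicate, and 0 without cells holding 2 markers of another cell type, an alternative chosen after seeing the data whose selection uses some of the same genes. The region log2 fold change of Apoe (-0.05) became 0.016 without scaling factors and lay between -0.178 and 0.043 without 1 replicate, above 0 without cortical replicate 1 (0.043) or hippocampal replicate 4 (0.040), and that of Lpl (0.37) became -0.013 without cells holding 2 markers of another type. None of these region values passed the threshold, and the cause was not tested.

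Shares of cells moved with the counts drawn. Apoe was in 95.4% of cells at 2000 counts. Cst7 was in 48.1% at 2000, 65.9% at 10000 and 77.5% as deposited, and Gas7 in 22.6%, 35.6% and 43.3%. Lpl was in 55.4% at 10000 and 59.8% as deposited, and Clec7a in 32.9% as deposited. Cst7 with Tmem119 was in 18.2%, 33.5% and 47.8% of cells, and Cst7 with P2ry12 in 33.8%, 55.3% and 71.0%. Without 1 replicate the shares were 97.8% to 99.3% for Apoe, 55.9% to 59.4% for Cst7, 41.3% to 48.2% for Lpl, 30.02% to 33.3% for Gas7 and 18.5% to 26.2% for Clec7a. Genes above the spread trend numbered 0 at 2000 and at 10000 counts and 0 without the shallowest library. Without 1 replicate they numbered 3 to 4, but there the rule had to hold only in the replicates left and was looser. The leading genes per kb and by CPM shared 7 of 15. Among single genes, 90 gate values lost their call under an alternative and 420 kept direction and call. No paired analysis was possible because the names 1-2 and 2-3 match no single number of the other groups, which leaves only the number 4 in common.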

Other observations

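The chemokine gene Ccl4 had 274, 237 and 277 CPM in CD11c-positive replicates 1-2, 2-3 and 4, and the richest 10% of cells held 97.2% of its counts. Spp1, encoding osteopontin, had 106, 24.6 and 7.73 CPM in the same replicates, against an adjusted p of 0.172 in edgeR's test between the gates.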
